A study of Saccharomyces cerevisiae with 3 samples.

Results

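The genes described here are 38 budding yeast genes of the general stress response, leaving out heat shock proteins and the genes of trehalose and glycogen storage. They were taken from the 6212 genes listed on the arrays by their systematic names, and the selection was made with the ratios of these same 3 arrays in view. Of the 38 genes, 32 had a ratio on at least 1 array and 30 had one in both replicates. The ratios below are therefore a description, and none is offered as a test of whether these genes responded.

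The general stress response is a shared programme that yeast cells switch on under many kinds of stress and as growth slows. Much of it depends on the related zinc finger activators Msn2 and Msn4, which protein kinase A holds back in rapidly growing cells and which bind stress response elements in promoters once they enter the nucleus. Its products remove peroxides and aldehydes, supply NADPH, restrain vacuolar proteases, remodel the cell surface and reshape metabolism.

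The study hybridised RNA of a mutant, tetO:HAL3 vhs3::URA3, together with RNA of its wild type, both in the JA100 background. In the mutant VHS3 was disrupted with URA3 and HAL3 was placed under a tetO promoter, which doxycycline represses. Hal3 and Vhs3 inhibit the protein phosphatase Ppz1 and take part in coenzyme A synthesis. Both strains received 100 µg/ml doxycycline over 15 h of growth in synthetic complete medium at 28 °C, so the drug was common to mutant and wild type. The labels describe 2 biological replicates on 3 spotted arrays with 2 colours. Replicate 1 was hybridised with the mutant in Cy5 and again with the mutant in Cy3, and replicate 2 once with the mutant in Cy5. Each value below is the log2 of the mutant level over the wild-type level, with the median of its array set to 0, so a value of −1 is a level 2-fold lower in the mutant. Levels in each strain alone were not used here, and how many arrays there are limits the precision.

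The direction of the ratio is likely rather than stated. It rests on which strain the labels give to which dye, and on the values of VHS3 and HAL3, which were at −2.06 and −2.50 and at −1.33 and −1.29 on the dye-swap pair of replicate 1. In the hybridisation labelled replicate 2 these were at 0.09 and −0.14, so VHS3 went against the label there. URA3 was at −1.40, −0.82 and −0.33 although it served as the disruption marker. If the ratio ran the other way, every sign and every order from the lowest below would be turned. The arrays also differed in spread, with an SD of 0.650 and 0.699 in replicate 1 and 0.353 in the hybridisation labelled replicate 2, and each is given separately for that reason. Where 3 values follow a gene, they stand for replicate 1 with the mutant in Cy5, replicate 1 with the mutant in Cy3, and the hybridisation labelled replicate 2.

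Most of the measured general stress genes had lower ratios in the mutant in both replicates. Among the 30 genes measured in both, 22 were below 0 in both replicates, 1 was above 0 in both and 7 differed in sign. Over all 4598 genes measured in both replicates, 24.6% were below 0 in both, 26.6% were above 0 in both and 2240 genes differed in sign. On all 3 arrays 21 of 29 genes were below 0, and 15.9% of all genes were. The median of the 30 genes was −0.72 in replicate 1 and −0.29 in the hybridisation labelled replicate 2, against 0.02 and 0.00 for all genes. In replicate 1, 10 of the 30 were at least 2-fold lower in the mutant, where the share of all genes was 3.81%. In the hybridisation labelled replicate 2 only FMP48 and OM45 reached that size (2 of 30, with 1.98% of all genes), and they did so in both replicates (0.13% of all genes). OM45 lies on chromosome IX, whose median in replicate 1 was −0.67, and FMP48 on VII, where 19.1% of genes lay in the lowest 10% of the hybridisation labelled replicate 2. None of the 30 was 2-fold higher in either replicate, and few genes were at all. Of all 4598 genes, 126 were 2-fold higher in replicate 1 and 15 in the hybridisation labelled replicate 2. In RNA of a whole culture, fewer cells with a transcript and less of it per cell cannot be told apart. Since these ratios chose the genes, nothing is read from the distance between their shares and those of all genes. By limma's moderated test, 0 of the 4598 genes (0%) had an adjusted p under 0.05 after Benjamini-Hochberg adjustment. An unadjusted p under 0.05 was reached by 222 of the 4598, about as many as this limit passes when no gene has changed.

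**Figure D1:**
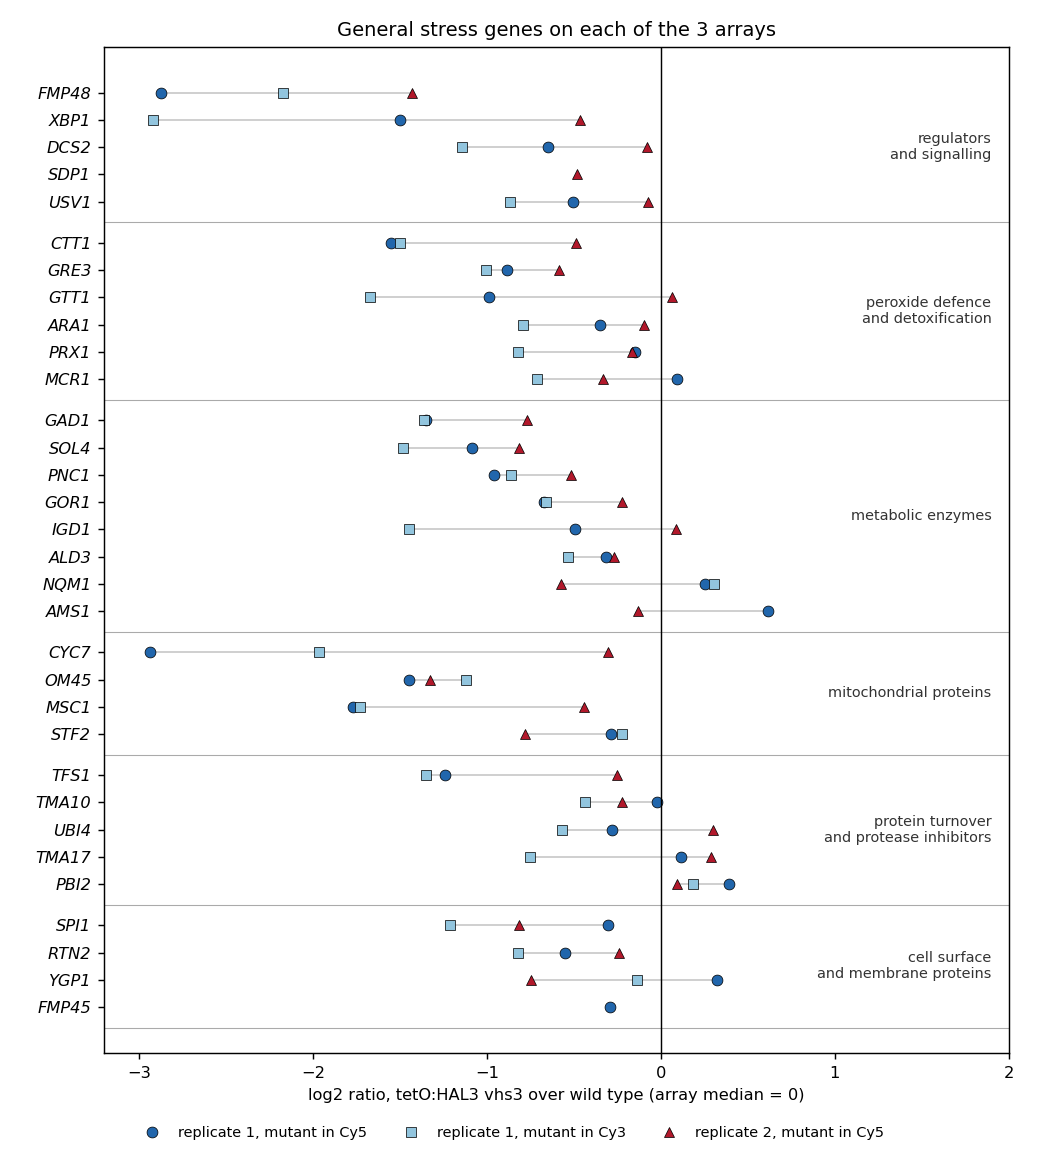
Log2 ratio of mutant over wild type (horizontal axis, array median at 0) for the 32 general stress genes with a value, grouped by role, with 1 symbol for each of the 3 arrays and a grey line over their range. FMP48 lies at −2.87, −2.17 and −1.43 and OM45 at −1.45, −1.12 and −1.33, while PBI2 lies at or above 0.09 on all 3 arrays.

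For regulators of transcription and signalling the median was −1.55 in replicate 1 and −0.27 in the hybridisation labelled replicate 2, with 4 of 4 below 0 in both, and FMP48 (YGR052W) and XBP1 (YIL101C) held the lowest ratios of this group. FMP48, which encodes a predicted protein kinase, was at −2.87 and −2.17 in replicate 1 and at −1.43 in the hybridisation labelled replicate 2, that is 5.74-fold and 2.69-fold lower in the mutant in the 2 replicates. Its mean of −1.97 ± 0.77 (SD, n = 2) was the lowest of the 30, and on the first array it ranked 8 from the lowest of 4894 genes. XBP1, a repressor of transcription made under stress and in quiescence, was at −1.50, −2.92 and −0.46. Both arrays of replicate 1 thus placed XBP1 at least 2-fold lower, but they differed from each other by more than the hybridisation labelled replicate 2 differed from 0. DCS2 (YOR173W), a stress-induced relative of the scavenger decapping enzyme Dcs1, was at −0.65, −1.14 and −0.08. USV1 (YPL230W), a zinc finger transcription factor, was at −0.50, −0.86 and −0.07. For both of these the hybridisation labelled replicate 2 was close to 0. SDP1 (YIL113W), a phosphatase that acts on the MAP kinase Slt2, had a value in the hybridisation labelled replicate 2 alone, at −0.48.

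For peroxide defence and detoxification genes the median was −0.76 in replicate 1 and −0.25 in the hybridisation labelled replicate 2, with 5 of 6 below 0 in both. CTT1 (YGR088W), the cytosolic catalase, was at −1.55, −1.50 and −0.49, and its mean was −1.01 ± 0.73 (SD, n = 2). Here the dye-swap pair agreed closely, and the larger gap lay between replicates. GRE3 (YHR104W), an aldose reductase that reduces methylglyoxal and other aldehydes, was at −0.89, −1.004 and −0.59. GRE3 was at least 1.5-fold lower in the mutant in both replicates, as were 6 of the 30 genes (1.09% of all genes). GTT1 (YIR038C), a glutathione transferase of the endoplasmic reticulum, was at −0.99 and −1.67 in replicate 1 but at 0.06 in the hybridisation labelled replicate 2. PRX1 (YBL064C), the mitochondrial peroxiredoxin, was at −0.15, −0.82 and −0.17. ARA1 (YBR149W), an NADP-dependent arabinose dehydrogenase, was at −0.35, −0.79 and −0.10. MCR1 (YKL150W), a mitochondrial NADH-cytochrome b5 reductase, was at 0.09, −0.71 and −0.33, so its sign in replicate 1 differed with the dye.

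For the 8 metabolic genes the median was −0.79 in replicate 1 and −0.39 in the hybridisation labelled replicate 2, with 5 below 0 in both and 3 that differed in sign. GAD1 (YMR250W), glutamate decarboxylase of the GABA shunt, was at −1.35, −1.36 and −0.77, with a mean of −1.06 ± 0.41 (SD, n = 2). SOL4 (YGR248W), a 6-phosphogluconolactonase of the pentose phosphate pathway, was at −1.08, −1.48 and −0.81, with a mean of −1.05 ± 0.33 (SD, n = 2). PNC1 (YGL037C), the nicotinamidase that feeds NAD salvage and removes an inhibitor of Sir2, was at −0.96, −0.86 and −0.52. These 3 genes were among the lowest 10% of all genes in both replicates. GOR1 (YNL274C), glyoxylate reductase, was at −0.67, −0.66 and −0.22, and ALD3 (YMR169C), a cytosolic aldehyde dehydrogenase, at −0.32, −0.53 and −0.27. IGD1 (YFR017C), an inhibitor of the glycogen debranching enzyme, was at −0.49 and −1.45 in replicate 1 and at 0.09 in the hybridisation labelled replicate 2. Opposite signs were also seen for NQM1 (YGR043C), a transaldolase, and AMS1 (YGL156W), the vacuolar alpha-mannosidase, which were the 2 metabolic genes above 0 in replicate 1. NQM1 was at 0.25, 0.31 and −0.58. AMS1 was at 0.62 on the array with the mutant in Cy5, was blank on the swapped array, and was at −0.13 in the hybridisation labelled replicate 2.

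For mitochondrial genes the median was −1.52 in replicate 1 and −0.61 in the hybridisation labelled replicate 2, with all 4 that were measured below 0 on each of the 3 arrays. OM45 (YIL136W), a protein of the outer membrane, was at −1.45, −1.12 and −1.33. It was lower in the mutant by 2.43-fold in replicate 1 and by 2.51-fold in the hybridisation labelled replicate 2. With each chromosome set to a median of 0, these became −0.57 and −1.28 on the log2 scale, since OM45 lies on chromosome IX. CYC7 (YEL039C), the isoform of cytochrome c made at low oxygen and under stress, was at −2.93, −1.96 and −0.31, or 5.46-fold and 1.24-fold lower. MSC1 (YML128C), a protein found with mitochondria in surveys, was at −1.77, −1.73 and −0.44. In these 2 genes the ratio of replicate 1 was thus far from 0 with either dye, and that of the hybridisation labelled replicate 2 much nearer. STF2 (YGR008C), which helps to keep the mitochondrial ATP synthase inhibited, had the reverse order, at −0.28, −0.22 and −0.78.

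Genes of protein turnover stayed nearest to 0. Their median was −0.32 in replicate 1 and 0.09 in the hybridisation labelled replicate 2, and 2 of 5 were below 0 in both. TFS1 (YLR178C), an inhibitor of vacuolar carboxypeptidase Y, was the exception in replicate 1, at −1.24, −1.35 and −0.25. PBI2 (YNL015W), which inhibits vacuolar proteinase B, was at 0.39, 0.18 and 0.09 and was the 1 gene of the 30 above 0 on every array. The inhibitors of these vacuolar proteases thus differed in sign. UBI4 (YLL039C), the polyubiquitin gene, was at −0.28, −0.57 and 0.30. TMA17 (YDL110C), an assembly chaperone of the proteasome regulatory particle, was at 0.12, −0.75 and 0.29. Their signs were opposite between replicates. TMA10 (YLR327C), a ribosome-associated protein related to Stf2, was at −0.02, −0.44 and −0.22.

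Of the genes for cell surface and membrane proteins, 3 were measured in both replicates. SPI1 (YER150W), a wall protein with a GPI anchor, was at −0.30, −1.21 and −0.81, so that its replicate means of −0.76 and −0.81 were close although its dye-swap pair was not. YGP1 (YNL160W), a secreted glycoprotein induced on nutrient limitation, was at 0.32, −0.14 and −0.74. RTN2 (YDL204W), a reticulon of the endoplasmic reticulum, was at −0.55, −0.82 and −0.24. FMP45 (YDL222C), a membrane protein of the Sur7 family, had a value on the first array alone, at −0.29.

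The other 6 genes had no value on any array. They are GRE1 (YPL223C) and SIP18 (YMR175W), which encode small hydrophilic proteins tied to desiccation and osmotic stress, PAI3 (YMR174C), the inhibitor of vacuolar proteinase A, MOH1 (YBL049W), FMP16 (YDR070C) and the membrane protein gene PHM7 (YOL084W). Among the general stress genes 15.8% of 38 were blank on all 3 arrays, and among all listed genes 14.7% of 6212. What makes a spot blank is not known here, so these 6 have neither a direction nor a bound.

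**Figure D2:**
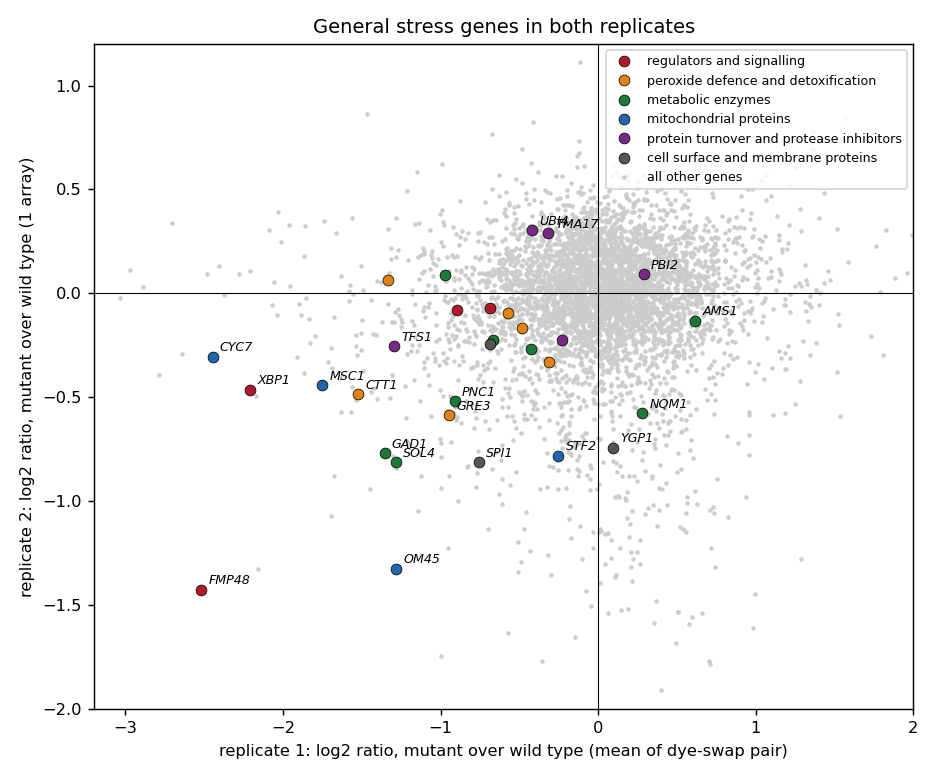
Log2 ratio of mutant over wild type in replicate 1 (horizontal axis, mean of the dye-swap pair) against the hybridisation labelled replicate 2 (vertical axis) for 30 general stress genes, coloured by role, over all genes in grey; 27 genes lie outside the axes. FMP48 and OM45 are the coloured points below −1 on both axes, and PBI2 is the coloured point above 0 on both.

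The general stress genes were ordered much alike by both arrays of replicate 1 and less so by the 2 replicates. Over the 29 genes with a value on all 3 arrays, Pearson's r between the arrays of the dye-swap pair was 0.806, and over 4546 genes of the whole table it was 0.508. Between replicates r was 0.379 over 30 genes (Spearman's rho 0.334), compared with 0.159 over 4598 genes. These are descriptions across genes that share arrays and RNA extracts. The general stress genes were also chosen with these ratios in view, which can raise r. Nothing is thus read from the distance between their r and that of all genes. The ratio was lower in replicate 1 than in the hybridisation labelled replicate 2 for 22 of the 30 genes, and for 2175 of all 4598. Within the dye-swap pair the array with the mutant in Cy3 gave the lower ratio for 20 of 29, against 51.9% of all genes. The median gap was −0.28, against −0.03 for all genes. To set the narrower array labelled replicate 2 on the same footing, genes were also placed by rank. In the lowest 10% of all genes lay 18 of the 30 in replicate 1 and 13 in the hybridisation labelled replicate 2. The lowest 10% of both held 10 of the 30 genes, where the share of all genes was 1.85%.

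Relatives in sequence or activity were set beside the general stress genes, and the stress genes mostly had the lower ratio. The stress genes were chosen with these ratios in view and the pairs with earlier results known. That order was thus favoured in advance, and the counts below are a description only. Of 13 pairs with a relative outside the group and values in both replicates, the general stress gene had the lower ratio in 12 pairs in replicate 1 and in 9 in the hybridisation labelled replicate 2, and in both replicates in 8. The median difference, stress gene minus relative, was −0.43 in replicate 1 and −0.26 in the hybridisation labelled replicate 2. Pairs without values in both replicates were left out of these counts. On the first array FMP45 was at −0.29, above its relative YNL194C at −1.49. SDP1 was at −0.48 in the hybridisation labelled replicate 2, below its relative MSG5 at −0.10. CYC7 was at −2.45 in replicate 1 and −0.31 in the hybridisation labelled replicate 2, while CYC1, the main cytochrome c gene in air, was at −0.13 and 0.61. SOL4 was at −1.28 and −0.81, while SOL3, the other 6-phosphogluconolactonase, was at 0.39 and −0.03. For cytosolic catalase CTT1 the values were −1.53 and −0.49, and for the peroxisomal catalase CTA1 −0.12 and 0.29. In these 3 families the stress gene was thus lower than its relative in each replicate. RTN2 and DCS2 had the same order, with RTN1 at 0.02 and 0.12 and DCS1 at −0.24 and 0.18. PRX1 did too, with the cytosolic peroxiredoxin gene TSA1 at −0.19 and 0.50, although the dye-swap pair gave 0.41 and −0.80 for TSA1.

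In 3 other families the genes of a pair lay closer together in replicate 1. ALD3 was at −0.43 in replicate 1 and −0.27 in the hybridisation labelled replicate 2, and its adjacent relative ALD2 was at −0.41 and −0.54. GOR1 was at −0.67 and −0.22, and YPL113C, a related dehydrogenase, at −0.59 and −0.19. SPI1 was at −0.76 and −0.81, and SED1, another wall protein with a GPI anchor, at −0.63 and −0.97. In these 3 families both genes were below 0 in both replicates. A spotted probe may capture transcripts of a close relative as well, so the values within any of the families compared here may not be independent. This was not tested. YGP1 was at 0.09 and −0.74, and its relative SPS100 at 0.42 and −0.55. NQM1 and TAL1, the main transaldolase gene, went opposite ways in replicate 1, at 0.28 and −0.55. In the hybridisation labelled replicate 2 their order was reversed, with NQM1 at −0.58 and TAL1 at 0.03. USV1 and UBI4 were lower than their relatives in replicate 1 alone, RGM1 being at 0.20 and −0.18 and RPL40A, which also encodes ubiquitin, at 0.01 and 0.04.

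**Figure D3:**
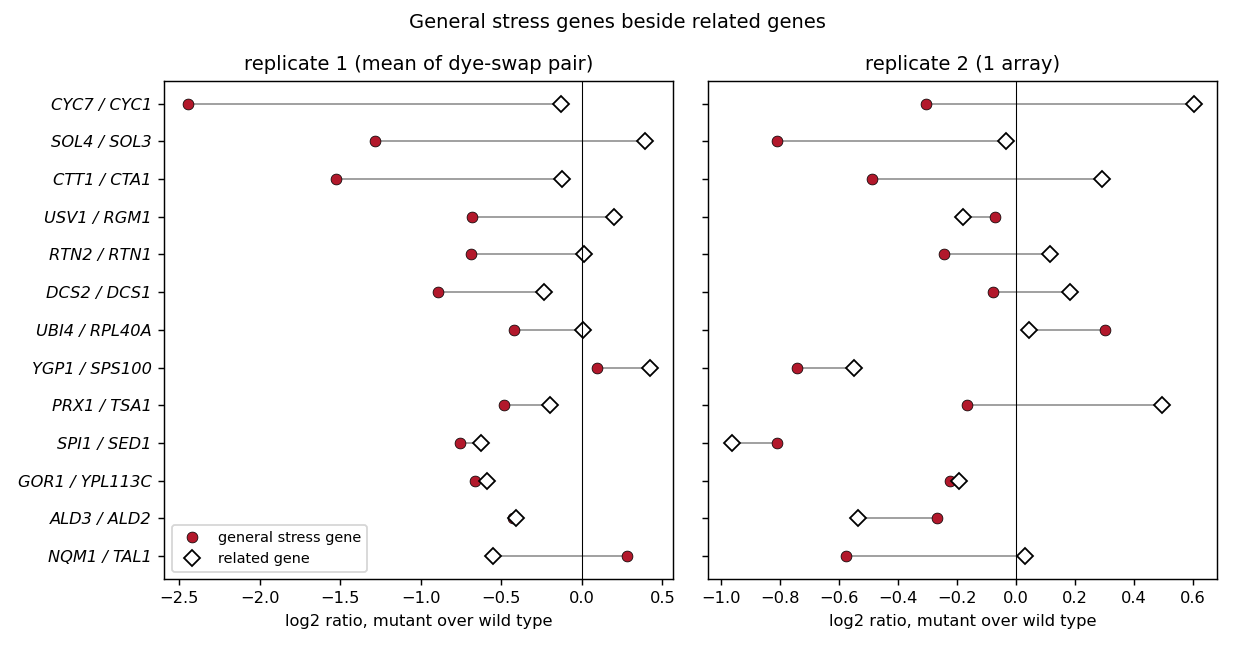
Log2 ratio of mutant over wild type for 13 general stress genes (filled circles) and a relative of each (open diamonds) in replicate 1 (left panel) and in the hybridisation labelled replicate 2 (right panel), with the axes of the panels on different scales. The circle lies left of the diamond in 12 pairs in replicate 1 and in 9 in the hybridisation labelled replicate 2.

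The pathway upstream of these genes was covered by a list of 39 genes for stress signalling and its regulators. Of 35 measured in both replicates, 18 were below 0 in both and 6 above, where the shares of all genes were 24.6% and 26.6%. The medians of the list were −0.11 in replicate 1 and −0.07 in the hybridisation labelled replicate 2. None of the 35 passed the adjusted limma test in either direction, as none did over all genes. GIS1, a transcription factor of the diauxic shift that shares targets with Msn2 and Msn4, was at −1.29, −0.58 and −0.72. MSN4 itself was at −1.01, −0.90 and −0.31. BCY1, the inhibitory subunit of protein kinase A, was at −1.07, −1.52 and −0.14, and lies on chromosome IX. IRA1, which restrains Ras and thereby protein kinase A, was at −0.43, −0.54 and −0.26. All 4 were below 0 on every array, and by mean they are the largest in absolute size among the list's genes measured on all 3 arrays. MSN2 did not share that direction, at 0.13, −0.36 and 0.21. The highest mean of the list was 0.31, for RAS1.

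Antioxidant genes outside the group had medians closer to 0 than those within it, a difference that was not tested. It was favoured in advance, since the genes within the group were chosen with these ratios in view. In a list of 25 such genes, 10 of 22 measured in both replicates were below 0 in both, where the share of all genes was 24.6%. The medians of the list were −0.14 in replicate 1 and −0.01 in the hybridisation labelled replicate 2. The 4 with the largest means in absolute size, all below 0, were CCP1, cytochrome c peroxidase, at −0.77, −1.41 and 0.00, AHP1, a thiol peroxidase, at −0.14, −1.40 and −0.07, SOD1, the copper and zinc superoxide dismutase, at −0.34, −1.19 and −0.01, and HYR1, another thiol peroxidase, at −0.16, −1.07 and −0.13. HYR1 lies on chromosome IX, whose medians were −0.80 and −0.62 on the dye-swap pair. Each of the 4 was lower with the mutant in Cy3 than with the mutant in Cy5, and each was between −0.13 and 0.00 in the hybridisation labelled replicate 2. That list was lower on the Cy3 array for 17 of 22 genes, against 51.9% of all genes, with a median gap of −0.34.

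The stress genes left out of the group had ratios of similar size. The medians of 18 trehalose and glycogen genes were −0.85 and −0.24, and 14 were below 0 in both replicates, with GAC1, TSL1, PGM2 and GSY1 at means of −1.28, −1.04, −1.03 and −1.01. Those of 25 heat shock protein genes were −0.64 and −0.36, and 20 were below 0 in both, with HSP12, SSA4, BTN2 and HSP26 at means of −1.90, −1.74, −1.37 and −1.19. The share of all genes below 0 in both replicates was 24.6%. No test of a difference between these lists and the general stress genes was made.

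**Figure D4:**
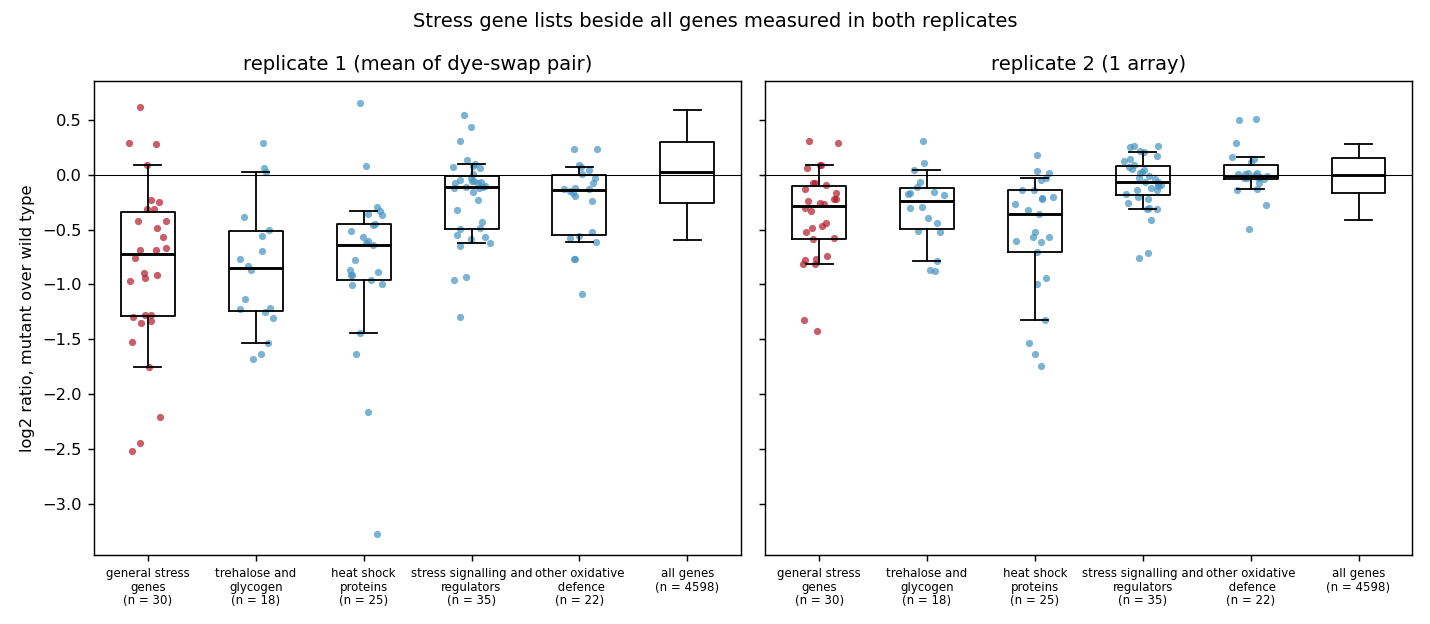
Log2 ratio of mutant over wild type (vertical axis) for the general stress genes (red points), 4 other lists (blue points) and all genes measured in both replicates, in replicate 1 (left panel) and in the hybridisation labelled replicate 2 (right panel); boxes span the quartiles with the median as a line, and whiskers the 10th to 90th percentile. The general stress genes have medians of −0.72 and −0.29, the stress signalling list −0.11 and −0.07, and all genes 0.02 and 0.00.

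Chromosome position moved with some of these ratios. All genes on chromosome IX had a median of −0.67 in replicate 1 (158 genes) and −0.05 in the hybridisation labelled replicate 2, and 58.2% of them lay in the lowest 10% of replicate 1. XBP1, OM45, GTT1 and SDP1 lie on that chromosome. With each chromosome set to a median of 0, XBP1 was at −1.50 in replicate 1 in place of −2.21, OM45 at −0.57 in place of −1.28, and GTT1 at −0.62 in place of −1.33. OM45 was then no longer 2-fold lower in replicate 1, and FMP48 was the 1 gene at that size in both replicates. In the hybridisation labelled replicate 2, 19.7% of 628 genes on chromosomes VII and VIII lay in the lowest 10%, and 16.5% of 158 genes on IX. On the chromosomes other than VII, VIII and IX it was 8.04% of 3582 genes. CTT1, FMP48, SOL4, PNC1, STF2, NQM1 and AMS1 lie on VII and GRE3 on VIII, and 7 of these 8 were in that lowest 10%. The 19 general stress genes elsewhere had medians of −0.67 in replicate 1 and −0.22 in the hybridisation labelled replicate 2. Of these 19, 14 were below 0 in both and 0 at least 2-fold lower in both. Among all genes on all chromosomes the shares were 24.6% and 0.13%, so a count of 0 in 19 says little. The part of the chromosomes in these ratios was not tested.

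**Figure D5:**
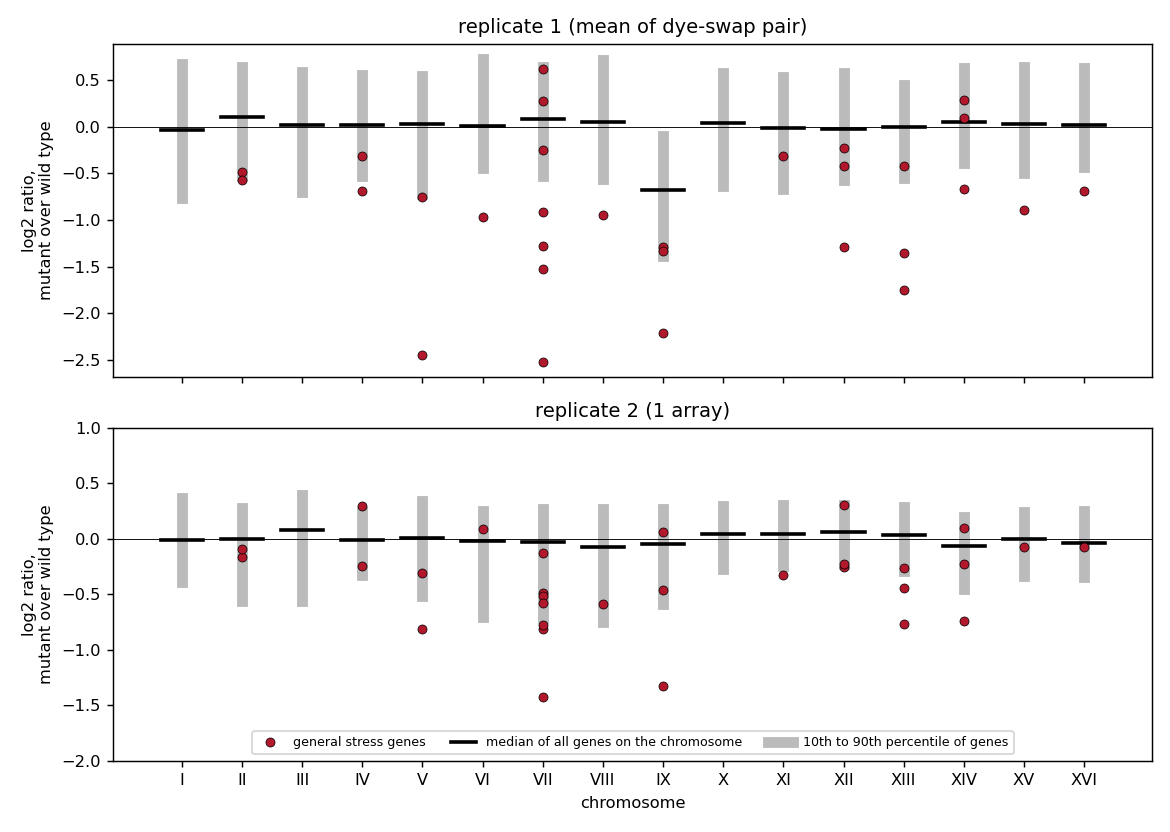
Log2 ratio (mutant over wild type) of 30 general stress genes (red points) by chromosome in replicate 1 (upper panel) and in the hybridisation labelled replicate 2 (lower panel), with the median of all genes on each chromosome (black line) and their 10th to 90th percentile (grey bar). The median of chromosome IX lies at −0.67 in replicate 1, and the general stress genes on VII and VIII lie below 0 in the hybridisation labelled replicate 2.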

How the data were processed

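Values are log2 ratios as the authors deposited them, 1 for each gene on each array. What scanner and settings were used, and how background and dye bias were corrected, was not given in the sources used here. Read as log2, 100% of the ratios are whole multiples of 0.001 within rounding, against 11.1 to 12.7% with the sign turned. Both arrays of replicate 1 correlated positively, so the swapped array had been turned already and was left as it was. Medians as deposited were 0.0229, 0.0072 and 0.0468.

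Each array was centred on its median, and the dye-swap pair was averaged into replicate 1, a single value standing for the pair where its partner was blank. The mean was tested against 0 over 4598 genes with limma 3.58.1 in R 4.3.3 (n = 2, 1 residual degree of freedom), after a check on simulated data. Names and chromosomes came from RefSeq (assembly R64), which matched 5638 of 6212 identifiers. All 38 genes are named, with up to 4 per comparison list by largest absolute mean on 3 arrays. MSN2 and RAS1 are named besides these. The genes, lists and pairs of relatives were chosen with earlier results of these data known. Centring, dyes, scale, blanks and fold limit were varied. Promoter motifs were not analysed here.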

Additional observations from a re-analysis of the deposited data

How the results depend on the processing

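The median of the general stress genes stayed below 0 under every setting run, between −0.61 (replicate 1 from the Cy3 array alone) and −0.38 (genes off chromosomes VII, VIII and IX, a setting added after seeing the data), and was −0.72 to −0.29 with either replicate left out. The number below 0 in both replicates was 21 to 23 of those measured, except for the 14 of 19 left off those chromosomes, and 25 to 26 with 1 replicate alone. At least 2-fold lower in both were 2 genes (0.13% of all genes), but 1 with chromosomes centred and 4 with arrays scaled to 1 spread. The count was 6 at a 1.5-fold limit (1.09% of all genes), 0 off chromosomes VII, VIII and IX, and 2 to 10 with 1 replicate alone. Limma called 0 of all genes, but 13 with the Cy3 array alone for replicate 1, 4 with arrays scaled and 17 with 3 arrays taken as independent. Of these calls 10, 3 and 11, in the same order, were for a higher ratio in the mutant. Some signs turned. UBI4, and with it the protein turnover median, was at 0.012 with mutant-in-Cy5 arrays only and 0.12 with arrays scaled, and TMA17 at 0.20 and 0.15, and at 0.017 as deposited. With 1 replicate alone the protein turnover median ran from −0.32 to 0.092, YGP1 from −0.74 to 0.091, GTT1 from −1.33 to 0.062, UBI4 from −0.42 to 0.30, AMS1 from −0.13 to 0.62, TMA17 from −0.32 to 0.29, IGD1 from −0.97 to 0.089 and NQM1 from −0.58 to 0.28. The cause was not tested. The planned motif alternatives and an intensity trend in the variance prior were not run, as neither promoter sequences nor intensities were used. How far a spot stood above background is thus not known. No paired analysis was possible because mutant and wild type share each array and the ratio already pairs them.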

Other observations

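Genes next to the general stress genes on their chromosomes were compared with them as a description of position. The 39 measured neighbours that are not themselves general stress genes, beside 25 of the 30, had medians of −0.05 in replicate 1 and −0.13 in the hybridisation labelled replicate 2. The general stress gene had the lower ratio than its neighbour in 31 of the 39 pairs in replicate 1, in 25 in the hybridisation labelled replicate 2 and in 21 in both. CTT1 was at −1.53 in replicate 1 and −0.49 in the hybridisation labelled replicate 2, while its neighbours PDC6 and NNF2 were at 0.15 and −0.23 and at 0.22 and −0.19. SPI1 was at −0.76 and −0.81, while PEA2 and UBP3 beside it were at 0.33 and −0.17 and at 0.45 and −0.21. SOL4 was at −1.28 and −0.81, while CPD1 beside it was at −0.23 and −0.75 and MGA1, a gene related to heat shock factors, at −1.22 and −0.71. These neighbours were named after their values were seen. The general stress genes were chosen with these ratios in view and their neighbours were not, so the order within pairs was favoured in advance. A gene with measured neighbours on both sides entered the counts with each. No test of position was made.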
